A study of Mus musculus with 2 samples.

Results

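The 10 genes described here encode heat shock proteins and their regulator, and were followed in 2 RNA-seq libraries of mouse myeloid-derived suppressor cells (MDSCs), the immature neutrophil-like and monocyte-like cells that restrain T cells in tumours. They were chosen by symbol as cytosolic and mitochondrial heat shock proteins with the factor that controls them, and they are 10 of the 55401 gene rows of the deposited table. They are Hspa8, Hspa1a and Hspa1b (HSP70 proteins), Hsph1 (HSP110), Dnajb1 (a J-domain co-chaperone), Hsp90ab1 and Hsp90aa1 (HSP90 proteins), Hspd1 and Hspe1 (the mitochondrial chaperonin pair) and Hsf1 (heat shock factor 1). All 10 had a mean of 1 FPKM or more, as did 12526 rows in all. FPKM stands for fragments per kilobase of transcript, scaled to the depth of the library.

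One library came from C57BL/6 mice of the genotype Mettl3fl/fl, whose Mettl3 alleles are flanked by loxP sites but remain whole without Cre. The other came from C57BL/6 mice with the same floxed alleles and LysM-cre, a recombinase expressed from the lysozyme 2 locus of myeloid cells. Any deletion would thus be limited to cells that express that locus. Mice of both genotypes were 8 weeks old and carried MC38 tumours, a mouse colon adenocarcinoma line, although 1 label of the LysM-cre sample names MC39. MDSCs were isolated on magnetic beads and kept for 24 h with MC38 cells before RNA was taken. The sources used here do not give how many mice went into each library. Each genotype had 1 library, so no difference below has a replicate check and none has a p-value.

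Depth was near equal, with 59506878 counts for the floxed control and 59393864 for the LysM-cre-labelled library. The targeted gene Mettl3, the catalytic subunit of the m6A RNA methyltransferase, stood at 4.16 FPKM in the control against 3.92 in the LysM-cre-labelled library. Its ratio of counts scaled to the library total (the CPM ratio) was 0.945, with an exact 95% interval of 0.876 to 1.02. Such intervals cover counting error only. The Mettl3 row counts reads over the whole gene and from all cells present, so it cannot show whether Mettl3 was deleted. The label is therefore kept as a label throughout. Where a pair of values is given, the control comes first. All 11 MDSC and neutrophil markers had counts in both libraries, and their summed level was 9880 FPKM in the control against 8859 in the LysM-cre-labelled library. Of these 11 markers, 8 were lower and 3 higher in the LysM-cre-labelled library. Monocyte and macrophage markers summed to 2579 and 2788 FPKM, and 8 of these 10 markers were higher and 2 lower. Markers of B and plasma cells summed to 17329 and 15344 FPKM, so RNA of these cells was also present. T and NK cell markers summed to 282 and 294 FPKM, erythroid markers to 984 and 1379, and fibroblast and endothelial markers to 18.6 and 19.9. Pecam1, listed as endothelial, made up most of that last sum, at 16.2 and 17.3 FPKM. The other endothelial genes listed, Cdh5 at 0.910 and 0.719 FPKM and Kdr at 0.515 and 0.497, were lower in the LysM-cre-labelled library. Pdgfrb, of the same list, held 279 and 296 counts. The fibroblast genes were scarce but higher in the LysM-cre-labelled library, with 53 and 82 counts of Col1a1, 26 and 65 of Col1a2, 32 and 127 of Col3a1, and 0 and 24 of Dcn. Epithelial markers that MC38 cells could carry summed to 4.06 and 4.22 FPKM, with Krt19 and Krt20 at 0 in both libraries. All 6 erythroid markers were higher in the LysM-cre-labelled library, as were these fibroblast genes and most heat shock genes. Most monocyte and macrophage markers were also higher, and most MDSC and neutrophil markers were lower. The part of these cell types in the values below was not tested. In bulk RNA, more cells of a type and more RNA per cell cannot be told apart.

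Heat shock proteins keep other proteins folded. HSP70 proteins bind short unfolded stretches and release them in a cycle driven by ATP, in which J-domain proteins such as Dnajb1 start ATP hydrolysis and HSP110 proteins such as Hsph1 exchange the nucleotide. HSP90 takes over later folding steps of kinases and receptors, and Hspd1 and Hspe1 form the folding chamber of mitochondria. Under stress Hsf1 forms trimers, binds repeats of GAA and TTC called heat shock elements, and switches on Hspa1a, Hspa1b, Dnajb1, Hsph1 and others, while Hspa8 is the HSP70 made by unstressed cells.

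The stress-inducible HSP70 genes Hspa1a and Hspa1b lie near each other on chromosome 17 and are nearly the same sequence, which bears on how their reads can be told apart. Their coding sequences (1923 and 1926 bases in GENCODE M21) aligned with 8 mismatches and 3 gap bases, an identity of 99.4%. The 200 bases before the start differed at 1 base, so the upstream regions are shown to let both be read together. They are RefSeq sequence of build GRCm38.p6, minus strand, printed 5′ to 3′, and capitals mark the GAA and TTC of the match to GAANNTTC.
Hspa1a, chr17:34972157-34972356: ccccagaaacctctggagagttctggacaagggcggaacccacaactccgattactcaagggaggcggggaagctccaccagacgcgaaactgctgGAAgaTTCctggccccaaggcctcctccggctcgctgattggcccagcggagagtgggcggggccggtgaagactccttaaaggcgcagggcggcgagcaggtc
Hspa1b, chr17:34959239-34959438: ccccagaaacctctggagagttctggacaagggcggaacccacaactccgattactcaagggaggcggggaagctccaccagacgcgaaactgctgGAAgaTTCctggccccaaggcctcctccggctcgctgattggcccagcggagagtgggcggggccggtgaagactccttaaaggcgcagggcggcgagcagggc

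RefSeq promoter windows, 250 bases before to 50 after the start, were found for 6 of the 10 genes, which were Hspa1a, Hspa1b, Hsph1, Dnajb1, Hspd1 and Hspe1. The windows were searched for 2 neighbouring heat shock units, GAANNTTC or TTCNNGAA. They were also searched for 3, which is GAANNTTC with NNGAA after it or TTCNNGAA with NNTTC after it. Both pairs cover both strands, and a match to 3 units also holds 2 overlapping matches to 2 units. Of 32851 mouse promoter windows of this length, 15.1% held a match to 2 units and 0.603% a match to 3. Hspa1a and Hspa1b each held 1 match to 2 units, from base -104 to -97 before the start. Hspe1 held 2 overlapping matches to 3 units, between bases -89 and -72, and Hsph1 held 1, from base 37 to 49 after the start. Hsph1 also held a separate match to 2 units, from base -33 to -26 before the start. The start used lay 40 bases from the row start for Hsph1, 18 for Dnajb1 and 16 for Hspe1. The windows of Dnajb1 and Hspd1 held no match to either. The Hspd1 window covers chr1:55088194-55088493 and stops short of the Hspe1 matches. Those matches lie inside the Hspd1 row, past its start, so the search does not show that Hspd1 lacks them. A match is a description of letters and not a binding site. The Hspe1 and Hsph1 stretches are shown because they were the 2 of the 6 windows with 3 units, with GAA and TTC in capitals.
Hspe1, chr1:55088055-55088080, plus strand: tccgTTCtaGAAccTTCcgGAAggcc
Hsph1, chr5:149636287-149636304, minus strand: cagaTTCtgGAAagTTCt

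The comparison between libraries asked how the heat shock genes differed between MDSCs of the 2 genotypes. Of the 10 genes, Hspa8, Hspa1a, Hspa1b and Hsph1 were higher in the LysM-cre-labelled library. Hsp90ab1, Hsp90aa1, Dnajb1 and Hsf1 were at nearly the same level. Counts of Hspa8, Hspa1a, Hspa1b and Hsph1 scaled to the library total were 1.31 to 1.65 times as high. Hspd1, Hsp90ab1, Dnajb1, Hsp90aa1 and Hsf1, 5 of the 10, lay within 10% of level. On the log2 scale of FPKM + 1, which understates differences of low genes, none of the 10 reached a 1.5-fold difference in either direction. Among all 12526 genes kept, 3.19% were at least 1.5-fold higher, 3.28% at least 1.5-fold lower and thus 6.47% past 1.5-fold in either direction.

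**Figure D1:**
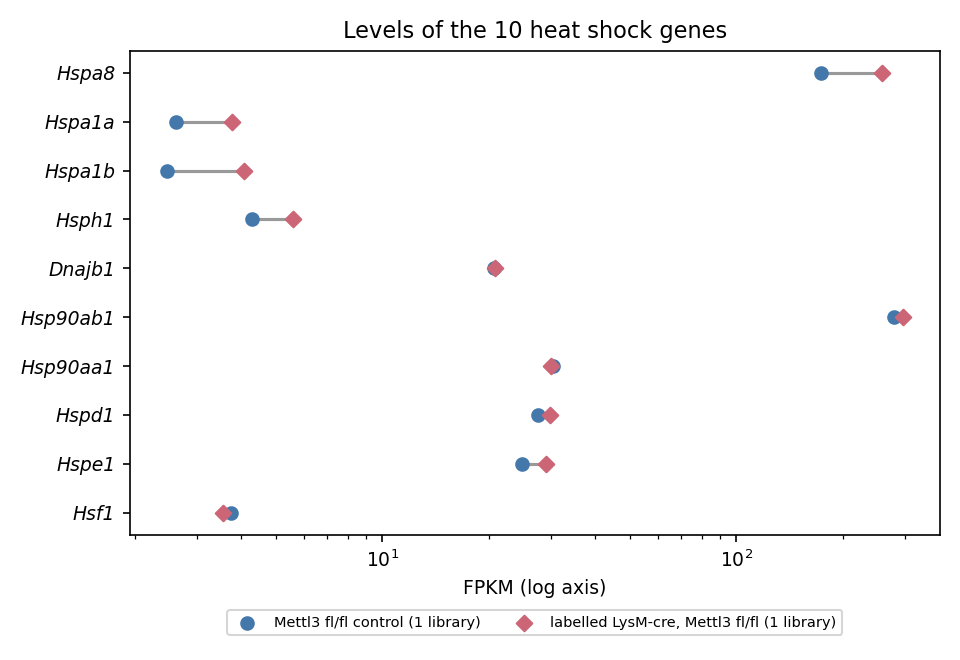
Level of each of the 10 genes in FPKM on a log axis. Circles are the floxed control library and diamonds the LysM-cre-labelled library. Hspa8, Hspa1a, Hspa1b and Hsph1 are shifted to the right in the LysM-cre-labelled library, while the points of Dnajb1 and Hsp90aa1 nearly coincide.

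Hspa8 is the constitutive HSP70 and the most abundant HSP70 transcript here. Hspa8 (ENSMUSG00000015656, chromosome 9, 40800984 to 40810087, plus strand, mm10) stood at 174 FPKM in the control against 258 in the LysM-cre-labelled library. These levels rested on 50010 and 73950 counts, a CPM ratio of 1.48 (95% interval 1.46 to 1.498). The log2 ratio of FPKM + 1 was 0.57, just under a 1.5-fold difference. Its rank by level went from 281 to 172 of the genes kept. Of 362 genes within 2-fold of its mean level, 19 had a log2 ratio at least as high (5.25%).

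The inducible HSP70 genes were low, and both were higher in the LysM-cre-labelled library. Hspa1a (ENSMUSG00000091971, chromosome 17, 34969190 to 34972156, minus strand) stood at 2.62 and 3.76 FPKM, on 521 and 744 counts. Hspa1b (ENSMUSG00000090877, chromosome 17, 34956436 to 34959238, minus strand) stood at 2.46 and 4.07 FPKM, on 461 and 761 counts. The CPM ratio was 1.43 for Hspa1a (95% interval 1.28 to 1.603) and 1.65 for Hspa1b (1.47 to 1.86). Hspa1b was the only one of the 10 genes with a CPM ratio of 1.5 or more, a size that 5.21% of the genes kept reached. None of the 10 lay at the matching size below level, as 4.91% of the genes kept did. Of 4984 genes within 2-fold of its mean level, 3.81% had a log2 ratio of FPKM + 1 at least as high.

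Reads of the pair cannot be assigned with certainty, so the sum is given beside them. Hspa1a and Hspa1b together held 982 and 1505 counts, a CPM ratio of 1.54 (95% interval 1.42 to 1.67). Hspa1a made up 53.1% of the counts of the pair in the control (exact 95% interval 49.9 to 56.2) against 49.4% in the LysM-cre-labelled library (46.9 to 52.0). These intervals overlap. Of all stretches of 150 bases, the read length, in the Hspa1a transcript, 39.7% also occur in another gene's transcript, and for Hspa1b the share was 40.5%. The first coding difference flanked by 20 identical bases on each side shows how little sets them apart. It is A156G, counted from the first base of the Hspa1a coding sequence and given as the Hspa1a base, the position and the Hspa1b base, and it lies in the coding exon of both genes (minus strand, differing base in capitals).
Hspa1a, chr17:34971750-34971790: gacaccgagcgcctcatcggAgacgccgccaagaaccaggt
Hspa1b, chr17:34958832-34958872: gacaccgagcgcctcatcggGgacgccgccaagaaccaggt

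Per length, both inducible genes were far below Hspa8. The FPKM of Hspa1a was 0.0151 times that of Hspa8 in the control and 0.0146 times in the LysM-cre-labelled library. This proportion was close in both libraries for Hspa1a. The CPM ratio of Hspa8, 1.48, lay between those of Hspa1a, 1.43, and Hspa1b, 1.65. Since reads of the pair cannot be assigned with certainty, the proportion of Hspa1a alone does not speak for the pair. The row Hspa1l, another HSP70 gene beside the pair and read from the opposite strand, held 100 and 110 counts.

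The nucleotide exchange factor Hsph1 was also higher, while the J-domain partner Dnajb1 was level. Hsph1 (ENSMUSG00000029657, chromosome 5, 149614287 to 149636376, minus strand) stood at 4.30 FPKM in the control against 5.62 in the LysM-cre-labelled library, on 2092 and 2726 counts. Its CPM ratio was 1.31 (95% interval 1.23 to 1.38), and none of its stretches of 50 bases occur in another gene. Dnajb1 (ENSMUSG00000005483, chromosome 8, 83608193 to 83612653, plus strand) stood at 20.6 and 20.8 FPKM. Its 4419 and 4445 counts gave a CPM ratio of 1.01 (0.966 to 1.05). Dnajb1 is a classical target of Hsf1, as Hspa1a and Hspa1b are.

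The HSP90 genes were close in level, and the constitutive form was far above the inducible one. Hsp90ab1, the constitutive HSP90 (ENSMUSG00000023944, chromosome 17, 45567775 to 45573271, minus strand), was the highest of the 10 genes at 279 and 296 FPKM. Its 55936 and 59087 counts gave a CPM ratio of 1.06 (95% interval 1.05 to 1.07). Hsp90aa1, the stress-inducible HSP90 (ENSMUSG00000021270, chromosome 12, 110690605 to 110702728, minus strand), stood at 30.4 and 30.0 FPKM on 7998 and 7856 counts, a CPM ratio of 0.984 (0.954 to 1.02). The FPKM of Hsp90aa1 was 0.109 times that of Hsp90ab1 in the control and 0.101 times in the LysM-cre-labelled library.

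The mitochondrial pair was slightly higher in the LysM-cre-labelled library. Hspd1 (HSP60, ENSMUSG00000025980, chromosome 1, 55077835 to 55088243, minus strand) stood at 27.6 FPKM in the control against 29.7 in the LysM-cre-labelled library, on 4867 and 5237 counts (CPM ratio 1.08, 95% interval 1.04 to 1.12). Hspe1 (HSP10, ENSMUSG00000073676, chromosome 1, 55088132 to 55091307, plus strand) stood at 24.9 and 29.1 FPKM, on 2449 and 2856 counts (1.17, 1.11 to 1.23). The genes are read away from each other, and their rows share 112 bases. The sources used here do not say whether the counting used strand. The FPKM of Hspe1 was 0.902 times that of Hspd1 in the control and 0.977 times in the LysM-cre-labelled library.

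The transcription factor itself was not higher. Hsf1 (ENSMUSG00000022556, chromosome 15, 76477422 to 76501913, plus strand) stood at 3.74 FPKM in the control against 3.55 in the LysM-cre-labelled library, on 1780 and 1683 counts. The CPM ratio was 0.947 with an interval of 0.886 to 1.01, which includes 1. Hsf1 is known to be switched on at the level of the protein, which these data do not measure.

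In both libraries the order by FPKM ran from Hsp90ab1 and Hspa8 through Hsp90aa1, Hspd1, Hspe1 and Dnajb1 down to Hsph1 and then the group of Hsf1, Hspa1a and Hspa1b. The order within that last group changed. Hsf1 stood above both HSP70 genes in the control, and Hspa1b and Hspa1a stood above Hsf1 in the LysM-cre-labelled library. The neighbours Hsp90aa1, Hspd1 and Hspe1 lay within 24.9 to 30.4 FPKM in the control, and without replicates their order cannot be set against a spread. Together the 10 genes took 0.219% of all counts in the control against 0.268% in the LysM-cre-labelled library (CPM ratio 1.22). Hspa8 alone made up 82.7% of that gain, and without it the ratio of the other 9 genes was 1.06.

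**Figure D2:**
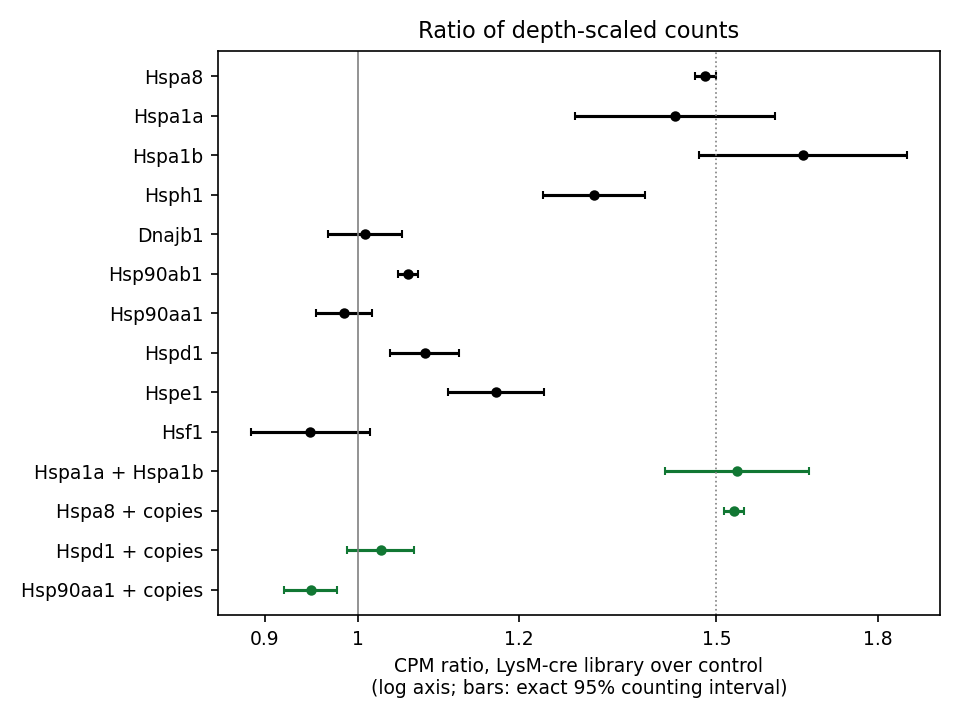
CPM ratio of the LysM-cre-labelled library over the control on a log axis, with exact 95% counting intervals. Black points are single genes, green points are sums of rows that share sequence, the solid line is 1 and the dotted line is 1.5. Hspa8, Hspa1a, Hspa1b and Hsph1 form the right-hand group, and the sum of Hspa8 and its copies (1.53) lies beyond the dotted line.

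Counting error alone was small beside most of these differences. The interval of the CPM ratio lay wholly above 1 for 7 of the 10 genes, below 1 for none, and included 1 for Hsp90aa1, Dnajb1 and Hsf1. At this depth such a result was common, since 30.1% of all genes kept had an interval wholly above 1 and 29.7% wholly below. The log2 ratio of FPKM + 1 was above 0 for 8 of the 10 genes, against 50.3% of all genes kept, and below 0 for 2, against 49.7%. Its median was 0.16 against 0.00 over all genes kept.

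**Figure D3:**
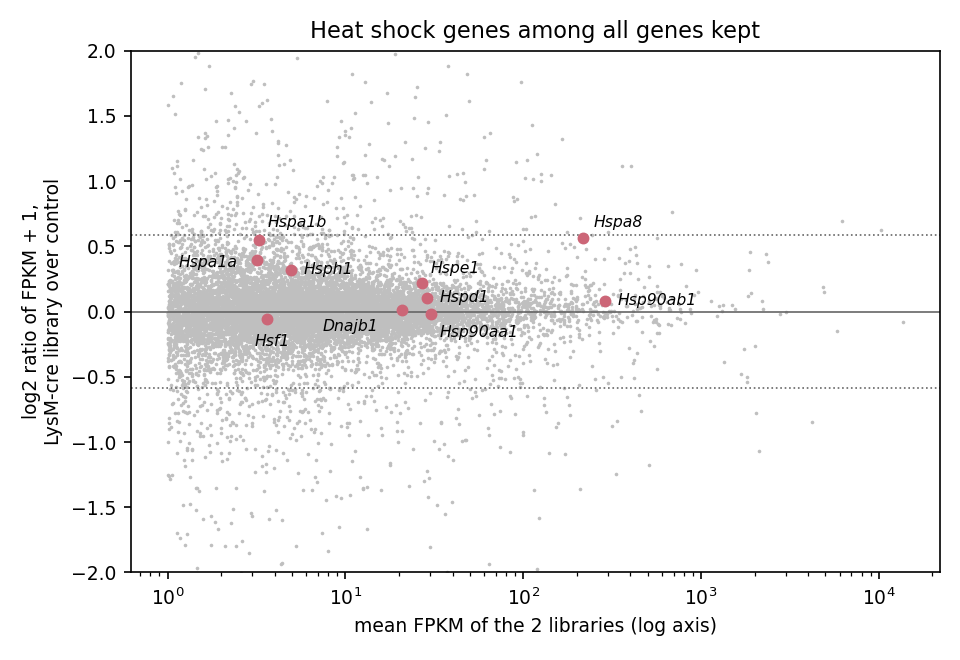
Log2 ratio of FPKM + 1 against the mean FPKM (log axis) for all 12526 genes kept in grey and the 10 heat shock genes in red. Dotted lines mark 1.5-fold, and 58 genes beyond 2 on the log2 scale lie outside the axis. The 4 HSP70 and HSP110 genes lie between 0.32 and 0.57, and the other 6 between −0.06 and 0.22.

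Hspa8 has many processed pseudogenes, copies of its messenger RNA set back into the genome, and their rows also differed. Of all 50-base stretches of the Hspa8 transcript, 73.2% occur in another gene's transcript, and of all 150-base stretches 55.4%. Gm15459 (chromosome 5, 5781615 to 5783555, minus strand), the copy with the most shared stretches, held 1569 counts in the control against 4054 in the LysM-cre-labelled library (CPM ratio 2.59, 95% interval 2.44 to 2.75). Gm8355 (chromosome 10, 14745362 to 14747302, minus strand) held 709 and 1985 counts (2.81, 2.57 to 3.06). Both stood further from level than Hspa8 itself. The other 6 copies with at least 100 shared stretches held 554 and 712 counts together (1.29, 1.15 to 1.44).

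With all 8 copies added, Hspa8 held 52842 and 80701 counts, a CPM ratio of 1.53 (95% interval 1.51 to 1.55). The sum was thus no nearer to level than Hspa8 on its own. The sources used here do not say how multi-mapping reads were assigned, so the split between Hspa8 and its copies is uncertain. The first such difference between Hspa8 and Gm15459 shows what separates their reads. It is G114A, counted from the first base of the Hspa8 coding sequence and given as the Hspa8 base, the position and the Gm15459 base, within a coding exon of Hspa8 (plus strand) and the single exon of Gm15459 (minus strand).
Hspa8, chr9:40802016-40802056: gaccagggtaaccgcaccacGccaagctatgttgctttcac
Gm15459, chr5:5783422-5783462: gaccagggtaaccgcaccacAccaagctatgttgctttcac

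The copies with the most shared stretches of Hsp90aa1 and Hspd1 were lower. Gm12346, a transcribed pseudogene of Hsp90aa1, held 536 counts in the control against 198 in the LysM-cre-labelled library (CPM ratio 0.370, 95% interval 0.313 to 0.436). Hspd1-ps3 held 562 and 322 counts (0.574, 0.499 to 0.659). With their copies added, Hsp90aa1 had a ratio of 0.948 (0.919 to 0.977), which then lay below 1, and Hspd1 a ratio of 1.03 (0.988 to 1.07), which then included 1.

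**Figure D4:**
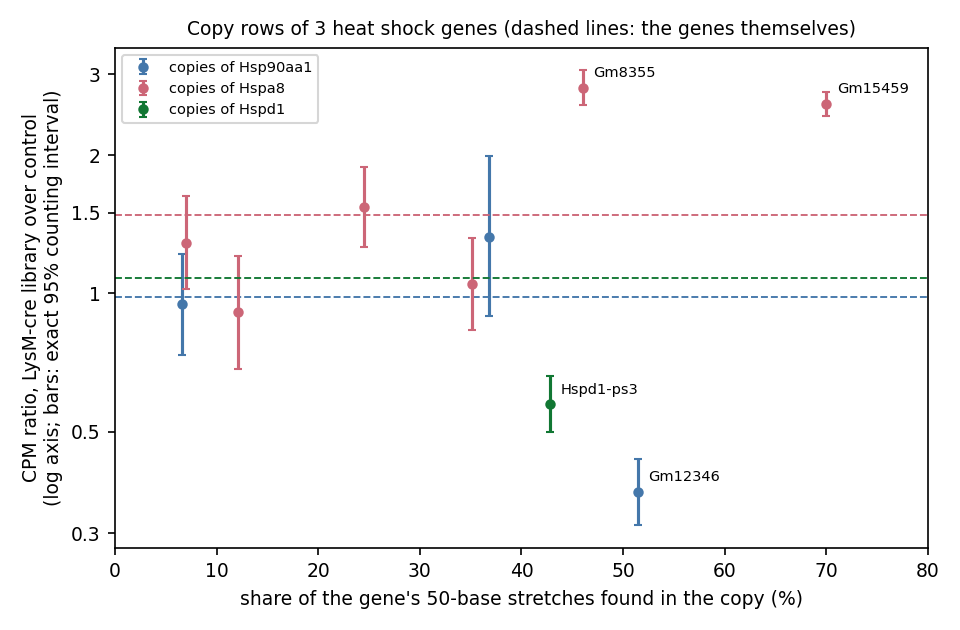
CPM ratio of copy rows of Hspa8, Hsp90aa1 and Hspd1 with counts in the control (log axis, exact 95% counting intervals) against the share of the 50-base stretches of the gene that the copy holds. Colours give the gene, and dashed lines give the ratio of the gene itself. The Hspa8 copies Gm15459 and Gm8355 lie at 2.59 and 2.81, above the Hspa8 line, and Gm12346 and Hspd1-ps3 lie below 1.

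The wider chaperone network was described with 8 lists of 121 further genes, of which 108 were kept. Most lists lay slightly above level. Of the 108 genes, 72 were higher and 36 lower in the LysM-cre-labelled library, against 50.3% and 49.7% of all genes kept. Those shares also stand beside the direction counts of each list below. The median log2 ratio was 0.07 against 0.00 over all genes kept. The counting interval lay wholly above 1 for 53 of the 108, wholly below for 19 and included 1 for 36. Among all genes kept, 30.1% lay wholly above 1 and 29.7% wholly below. None of the 108 was at least 1.5-fold higher and 1 was at least 1.5-fold lower, against 3.19% and 3.28% of all genes kept.

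Partners of HSP70 were mixed. Of 12 kept HSP70 relatives and nucleotide exchange factors, 9 were higher and 3 lower (median 0.10). Among them the HSP70-like genes Hspa14, at 8.71 and 10.05 FPKM, and Hspa13, at 3.58 and 4.12, were higher, and Hspa2, at 1.72 and 1.42, was lower. Hspa4 and Hspa4l, of the same list as Hspa2, had CPM ratios of 1.09 (95% interval 1.06 to 1.13) and 1.08 (1.003 to 1.16). Of 19 cytosolic J-domain genes, 10 were higher and 9 lower (median 0.01). Dnajc14 stood apart from the rest at 11.0 and 16.1 FPKM, a CPM ratio of 1.46 (95% limits 1.40 and 1.51). Dnajb12, a J-domain protein of the endoplasmic reticulum (ER) membrane, stood at 15.2 and 12.9 FPKM, and Dnaja1, a cytosolic partner of Hspa8, at 13.0 and 14.7.

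Of 20 HSP90 co-chaperones, 16 were higher and 4 lower (median 0.06). Rpap3, which links HSP90 to the assembly of RNA polymerase II, stood at 2.45 and 3.70 FPKM, a CPM ratio of 1.51 (95% limits 1.35 and 1.69). The ATPase activator relative Ahsa2, at 5.61 and 4.37 FPKM, and Fkbp5, a co-chaperone of steroid receptors that glucocorticoids induce, at 4.65 and 3.60, were lower. Genes listed as small heat shock proteins were scarce, with 3 of 10 kept. Cryab, the αB-crystallin gene, stood at 0.663 and 1.37 FPKM on 66 and 137 counts (CPM ratio 2.08, 1.54 to 2.83), and was kept only through the LysM-cre-labelled library, so no median of these 3 genes is given. Hspb6 stood at 1.62 and 2.18 FPKM and Hspb11 at 1.67 and 1.63. The classical heat-inducible gene Hspb1 held 4 and 8 counts and was not kept.

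Other folding machines lay close to level. Of 15 mitochondrial chaperones and proteases, 11 were higher and 4 lower (median 0.10), with the protease gene Spg7 at 8.39 and 10.5 FPKM, the exchange factor gene Grpel2 at 2.04 and 2.56 and the iron-sulfur co-chaperone gene Hscb at 12.7 and 10.9. Of 14 subunits of TRiC, the cytosolic chaperonin, and of prefoldin, which feeds it, 10 were higher and 4 lower (median 0.12). The largest differences were those of Cct3 at 10.7 and 12.3 FPKM, Cct7 at 13.2 and 14.8 and Pfdn1 at 9.98 and 11.2.

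Chaperones of the ER, which are governed by the unfolded protein response and not by Hsf1, were mostly higher in the LysM-cre-labelled library. Of 17 genes, 13 were higher and 4 lower (median 0.27), against 50.3% and 49.7% of all genes kept. Counting intervals of ER genes lay wholly above 1 for 13 (30.1% of all genes kept), below for 1 (29.7%) and included 1 for 3. Their leading genes were Creld2 at 18.2 and 24.7 FPKM (CPM ratio 1.36, 95% interval 1.27 to 1.45), Sdf2l1 at 25.8 and 34.8 (1.35, 1.27 to 1.43) and Manf at 15.1 and 19.8 (1.31, 1.249 to 1.36). The ER member of the HSP70 family, Hspa5, stood at 92.5 and 114 FPKM, and the ER member of the HSP90 family, Hsp90b1, at 103 and 124. ER chaperones are abundant in plasma cells. Jchain, a plasma cell gene, stood at 255 and 555 FPKM, whereas the other 7 B and plasma cell markers were lower in the LysM-cre-labelled library. Their part in the ER chaperone values was not tested.

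Of 8 kept genes of the HSF family and of genes that act on Hsf1, 7 were lower and 1 higher (median −0.13), against 49.7% lower among all genes kept. The counting interval lay wholly below 1 for 5 of the 8 and included 1 for 3, against 29.7% wholly below 1 among all genes kept. Gsk3b, a kinase that phosphorylates Hsf1, was the 1 network gene past 1.5-fold and stood at 8.72 FPKM in the control against 3.56 in the LysM-cre-labelled library (CPM ratio 0.408, 95% interval 0.389 to 0.429). Sirt1, a deacetylase of Hsf1, stood at 5.26 and 4.16 FPKM, and Hsf2, the second heat shock factor, at 1.901 and 1.52.

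**Figure D5:**
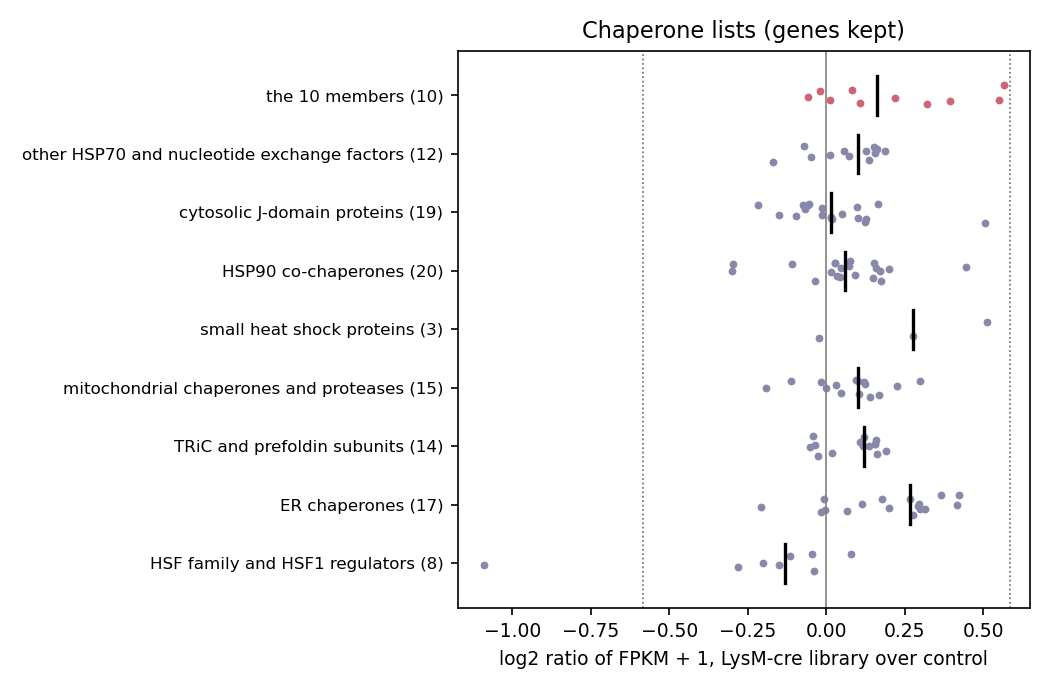
Log2 ratio of FPKM + 1 for each kept gene of the 10 heat shock genes (red) and of 8 chaperone lists (grey-blue), with the number of genes in brackets. Vertical bars are medians and dotted lines mark 1.5-fold. The medians run from −0.13 (HSF family and regulators) to 0.27 (ER chaperones), leaving aside the 3 genes listed as small heat shock proteins. Of these 3, Cryab was kept only through the LysM-cre-labelled library. Gsk3b is the point beyond the left dotted line.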

How the data were processed

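Libraries were made from poly(A) RNA with dUTP marking and read as pairs, per the labels' protocols. The build mm10 and the tools DESeq2, edgeR, StringTie 1.3.4d, HISAT2 2.0.4 and cutadapt 1.9 are named, without their roles, per the submitters' processing notes. The deposited table holds whole-number counts per gene row, not normalized, and FPKM values scaled by the authors, per the file headers. An FPKM of 0.0001 marks a count of 0 and was read as 0. No label describes 4 further libraries, and their 8 value columns were left out.

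Rows were kept at a mean of at least 1 FPKM over both libraries. The log2 ratio of FPKM + 1 and the CPM ratio (counts scaled to the library total), with an exact 95% (Clopper-Pearson) interval, were computed for each row, and 1.5-fold was counted as a fixed rule of size. With 1 library per genotype no test was made, and genes of like pattern could not be sought. The genes and lists were chosen with earlier results of these data known. All 10 members were named, with every network gene past 1.5-fold, the 3 kept genes of each list with the largest log2 ratio in size, and Mettl3. Hspb1, Hspa1l, Hspa4, Hspa4l, Hspa5, Hsp90b1, Jchain, Cdh5, Kdr, Pdgfrb, the fibroblast genes and the copies were named after their values were seen. Copies are rows whose GENCODE M21 transcripts share at least 100 stretches of 50 bases with the longest coding transcript of a member. The procedure was tested on simulated data. Intervals cover counting error only, and any PCR copies among the counts, which are not separate molecules, would make them too narrow. Tools were R 4.3.3 with edgeR 4.0.16 (TMM factors only), and biopython 1.88, scipy 1.17.1, numpy 2.4.6, matplotlib 3.10.9 and pandas 2.3.3 under Python 3.11.15.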

Additional observations from a re-analysis of the deposited data

How the results depend on the processing

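The count of heat shock genes at least 1.5-fold higher was 0 as reported. It was 1 (Hspa1b) with a pseudocount of 0.1 FPKM, with values rescaled to TPM, and with counts scaled to the library total, by TMM or by median-ratio factors. It was also 1 (Hspa8) with rows of shared sequence summed, an alternative chosen after seeing the data. The count of network genes at least 1.5-fold higher was 0 as reported, 1 (Cryab) with a pseudocount of 0.1 FPKM or TPM, and 2 (Cryab and Rpap3) with each of the 3 count scalings. Cryab passed the minimum of 1 FPKM only through the LysM-cre-labelled library, where it was higher. The count at least 1.5-fold lower was 0 with a minimum of 10 FPKM, since Gsk3b was not kept. Among all genes kept, 5.21% had a CPM ratio of 1.5 or more, and 4.91% lay at the matching size below level. The matching share of all genes was not computed under the other alternatives. The median over the 10 genes lay between 0.14 and 0.17 on the log2 scale under the alternatives that kept all 10, and was 0.09 over the 6 left by a minimum of 10 FPKM. The log2 ratio of Dnajb1 changed sign under 1 of 11 alternatives, TPM, at −0.0067. That of the other 9 genes kept its sign under each alternative run. No paired analysis was possible because each genotype had 1 library, and for the same reason no library could be left out.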

Other observations

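Introns of Hspa8 hold small nucleolar RNA genes that guide RNA modification. Snord14d, inside Hspa8 (chromosome 9, 40803995 to 40804080), held 54 counts in the control against 1 in the LysM-cre-labelled library, whereas Snord14c and Snord14e held 1 count in each library. These few counts are given as values only. The row Gm20481, annotated on the strand opposite Hspa1a over 2225 bases of it, held 0 counts in both libraries. These rows were named after their values were seen.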
